A study of Mus musculus with 78 samples.

Results

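The genes described here encode 10 proteins of the U5 small nuclear ribonucleoprotein (snRNP) and of the U4/U6.U5 tri-snRNP of the spliceosome: Ddx23, Prpf8, Snrnp200, Eftud2, Prpf6, Prpf3, Prpf4, Prpf31, Snrnp40 and Txnl4a. They are 10 of the 55401 genes in each of 3 count tables, and they were chosen by name around Ddx23, which was itself selected on 2 measured values of these data, its fall after loss of the transcription factor ZFP143 and the ZFP143 peak at its promoter. The changes of Ddx23 after depletion and the promoter peaks of all 10 genes are therefore given as descriptions, with no test. All measurements came from E14TG2a, a mouse embryonic stem cell (mESC) line, in homozygous clones. Their endogenous ZFP143 carried an FKBP12F36V degron with 2 HA tags at its C terminus, from a cassette that also encoded eGFP after a P2A sequence. Every group, control groups included, carried this tagged allele. Transient transcriptome sequencing (TT-seq), which captures RNA labelled with 4-thiouridine during 10 min, compared DMSO with 2, 6 and 24 h of 500 nM dTAG-V1, the compound that sends the tagged protein to degradation. The TT-seq controls are DMSO by their labels, with no time given, and their columns are headed 0H, so they may not be matched in time to each depletion. RNA-seq compared DMSO with depletion for 24, 48 and 72 h. The same DMSO libraries served all 3 times and have no time in their labels, so they too may not be matched in time. A second RNA-seq experiment had 24 h of DMSO or dTAG-V1, and the same followed by 24 h of 1 µM all-trans retinoic acid (RA) in a differentiation medium with DMSO or dTAG-V1 kept on, so that cells given both compounds lacked ZFP143 for 48 h in all. Each RA effect holds the change of medium too. In depleted cells it also holds the step from 24 to 48 h of depletion. Each of the 12 groups held 2 libraries.

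The spliceosome removes introns from precursor mRNA. Its U1 and U2 snRNPs first recognise the intron, and the U4/U6.U5 tri-snRNP then joins and supplies the RNAs that form the catalytic centre. PRPF8 is the large scaffold protein of the U5 snRNP, on which the helicase SNRNP200 (BRR2), the GTPase EFTUD2 (SNU114), the WD-repeat protein SNRNP40 and the small thioredoxin-like protein TXNL4A (DIM1) assemble. PRPF3, PRPF4 and PRPF31 belong to the U4/U6 side, and PRPF6 bridges the U5 and U4/U6 parts. DDX23 (PRP28) is the DEAD-box helicase that displaces U1 from the start of the intron when the tri-snRNP docks. These proteins are needed in every dividing cell, and inherited mutations in the genes of several of them cause retinal degeneration in people.

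Total counts ranged from 9721568 to 16532077 per library in TT-seq, from 10261851 to 15316700 in the RNA-seq time course and from 13890761 to 27089033 in the RA experiment. A gene was tested where 4 or more of the 8 libraries held over 10 counts, and all 10 members passed in all 3 tables. The pluripotency markers were present in the untreated cells, with a summed level of 5754 to 5919 CPM (counts relative to the scaled library size) over 8 genes in the RNA-seq DMSO libraries. That sum was 3387 to 3405 CPM after 72 h of depletion, and in the RA experiment it went from 6139 to 6381 CPM in DMSO to 1287 to 1841 CPM after RA. Zfp143 itself, the gene of the degraded protein, gave more RNA in depleted cells: 71.3 and 74.4 CPM of nascent RNA in DMSO against 162 and 165 CPM after 2 h (log2 change 1.17 ± 0.11 SE, edgeR adjusted p = 0.00104). Its mRNA was also higher at each time of depletion, by 1.09 to 1.38 on the log2 scale. In bulk RNA, fewer cells of a type and less RNA per cell cannot be told apart.

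The ZFP143 peak list, called by the authors on ChIP-seq of the HA tag, held a peak at the promoters of 4 of the 10 genes, namely Ddx23, Prpf4, Prpf31 and Snrnp40. A promoter counted as bound where a peak overlapped the window from 2000 bp before to 1000 bp after a transcript start with its centre under 2000 bp from that start. By the same rule 13.9% of 14963 tested protein-coding genes were bound. The list rests on a single ZFP143 ChIP-seq library and a single input, so enrichments, ranks and summits carry no measure of spread. The Ddx23 peak was among the strongest of the list, with an enrichment of 149.6-fold over input and rank 23 of 3189 peaks. The Prpf4 peak followed with 95.1-fold and rank 144. The peaks of Prpf31 and Snrnp40 were ordinary, with 27.7-fold and 24.96-fold against a median of 20.8-fold over all peaks. All 4 summits lay upstream of the annotated start of the gene, at 105 bp for Ddx23, 147 bp for Prpf4, 188 bp for Snrnp40 and 352 bp for Prpf31. In GENCODE vM21 on mm10 the bound genes span chr15:98645134-98662894 on the minus strand (Ddx23) and, on the plus strand, chr4:62408797-62426990 (Prpf4), chr7:3629985-3642486 (Prpf31) and chr4:130360132-130390026 (Snrnp40). For the other 6 genes the nearest peak lay at least 9817 bp from the start (Prpf6), and for Prpf8 at 25540 bp. Of the 10 promoters, that of Prpf4 alone also had a peak in the CTCF list, centred 1425 bp upstream, against 18.4% of the tested protein-coding genes.

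The DNA under these 4 summits is shown because a promoter peak is part of how these genes were chosen and 4 of the 10 have one. Each line gives 121 bases centred on the summit, read 5′ to 3′ in the direction of the gene from the GRCm38.p6 (mm10) assembly, with matches to the searched motifs in capitals. The windows are chr15:98662939-98663059 on the minus strand for Ddx23, and on the plus strand chr4:62408590-62408710 for Prpf4, chr7:3629573-3629693 for Prpf31 and chr4:130359884-130360004 for Snrnp40.
Ddx23: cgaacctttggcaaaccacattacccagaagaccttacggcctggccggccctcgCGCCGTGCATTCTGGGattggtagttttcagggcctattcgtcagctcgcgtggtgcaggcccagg
Prpf4: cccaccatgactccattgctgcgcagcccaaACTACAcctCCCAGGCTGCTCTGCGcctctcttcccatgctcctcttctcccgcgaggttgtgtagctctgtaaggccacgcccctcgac
Prpf31: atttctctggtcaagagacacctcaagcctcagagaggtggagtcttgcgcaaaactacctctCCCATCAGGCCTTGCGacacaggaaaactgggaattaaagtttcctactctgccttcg
Snrnp40: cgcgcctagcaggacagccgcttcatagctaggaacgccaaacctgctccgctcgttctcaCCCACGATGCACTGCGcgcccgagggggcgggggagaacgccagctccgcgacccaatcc

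The motifs were searched on both strands. ACTACA and a pattern of CCCA and ATGC separated by 2 free bases are parts of the sequence that ZFP143 is known to recognise, and a longer pattern (CCCA, 4 free bases, GC, 4 free bases, CG) was written after these 4 sequences had been seen. It overlaps the pattern of CCCA and ATGC. All 4 windows held the long pattern, on the strand opposite to the gene for Ddx23 and on the strand of the gene for the other 3. Over windows of 300 bases it occurred in 17.1% of the 3189 peaks and in 2.33% of the 32851 RefSeq promoters (GRCm38.p6). Ddx23 and Snrnp40 also held CCCA and ATGC at that spacing, found in 23.3% of the peaks and 1.88% of the promoters. In both, the match spans 1 to 10 bp downstream of the summit in the direction of the gene. It lies on the strand opposite to the gene for Ddx23 and on the strand of the gene for Snrnp40. ACTACA, found in 40.1% of the peaks and 10.3% of the promoters, was separated by 3 bases from the long pattern at Prpf4. The Prpf31 peak held 1 match to ACTACA within 300 bases of sequence at its summit, outside the stretch shown. In the RefSeq promoters of Prpf8, Snrnp200, Prpf6 and Prpf3, which had no peak, none of the 3 patterns occurred, and none occurred in that of Prpf31, whose summit lies further upstream than a RefSeq promoter reaches. RefSeq promoters of Ddx23, Eftud2, Snrnp40 and Txnl4a were not used here.

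**Figure D1:**
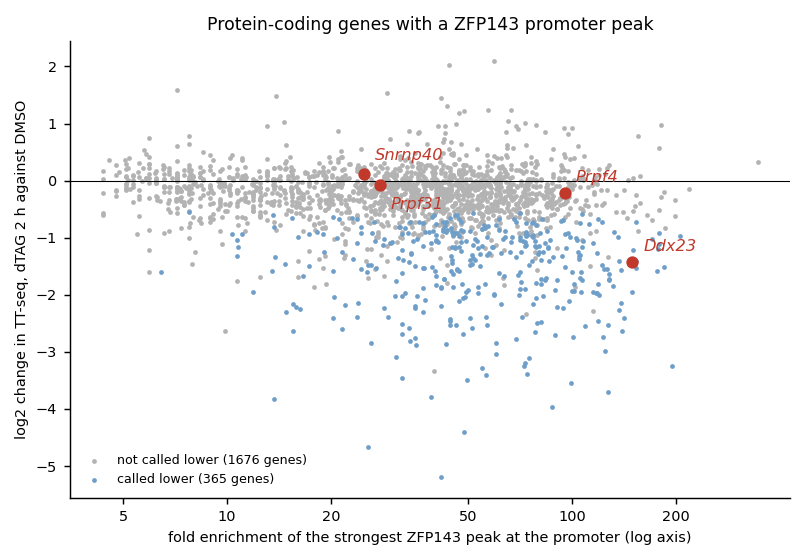
Each point is 1 of 2041 tested protein-coding genes with a ZFP143 promoter peak, with the enrichment of its strongest promoter peak (fold over input, log axis) against its log2 change in TT-seq after 2 h of dTAG, and with 365 genes called lower in blue. Ddx23 lies at 149.6-fold and -1.43, while Prpf4 at 95.1-fold, Prpf31 and Snrnp40 lie near 0 on the vertical axis.

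The plot of enrichment against nascent change places the 4 bound members among all bound genes. Of 2041 bound genes tested in TT-seq, 17.9% were called lower after 2 h, against 0.232% of 11619 without a peak. Among the 163 bound genes whose strongest promoter peak was at least as enriched as that of Prpf4, 71 were called lower (43.6%). Prpf4 was not among them, while Ddx23, chosen for its fall, was. Prpf31 and Snrnp40 belonged to the 1878 bound genes below that enrichment, of which 15.7% were called lower, and neither was called.

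The members spanned a wide range of expression, with Prpf8 near the top and different genes at the bottom in mRNA and in nascent RNA. In the DMSO libraries of the RNA-seq time course, Prpf8 had the highest level per kb of exons, 103 ± 4.10 CPM per kb (SD, n = 2), followed by Snrnp200 with 56.6 ± 0.00972, Snrnp40 with 40.9 ± 1.66, Eftud2 with 37.5 ± 0.387, Prpf6 with 36.6 ± 0.0953 and Ddx23 with 31.0 ± 0.937. Prpf3 (22.7 ± 0.708), Prpf31 (20.8 ± 0.271), Prpf4 (19.6 ± 0.15) and Txnl4a (8.02 ± 0.445) were lower, all in CPM per kb of exons. No neighbours in this order overlapped between their libraries. The DMSO libraries of the RA experiment gave another order, with Eftud2 (61.1) above Snrnp40 (56.4) and Prpf31 (38.9) above Prpf3 (31.5 CPM per kb). There Snrnp40 overlapped with Prpf6. In TT-seq, scaled per kb of gene span, Ddx23 had 4.64 ± 0.000486 CPM per kb (SD, n = 2), and its neighbours Prpf4 (4.50 ± 0.273), Snrnp200 (4.47 ± 0.219) and Snrnp40 (4.34 ± 0.0737) followed with libraries that overlapped between neighbours in the order. Txnl4a, lowest of the 10 in mRNA, was highest in nascent RNA with 10.1 ± 0.496 CPM per kb of gene span. Gm16286 overlaps 5947 bp of Txnl4a on the same strand, so the nascent counts of Txnl4a are uncertain. Prpf6 had the lowest nascent level, 1.78 ± 0.256 CPM per kb, in the longest gene of the group (63793 bp).

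**Figure D2:**
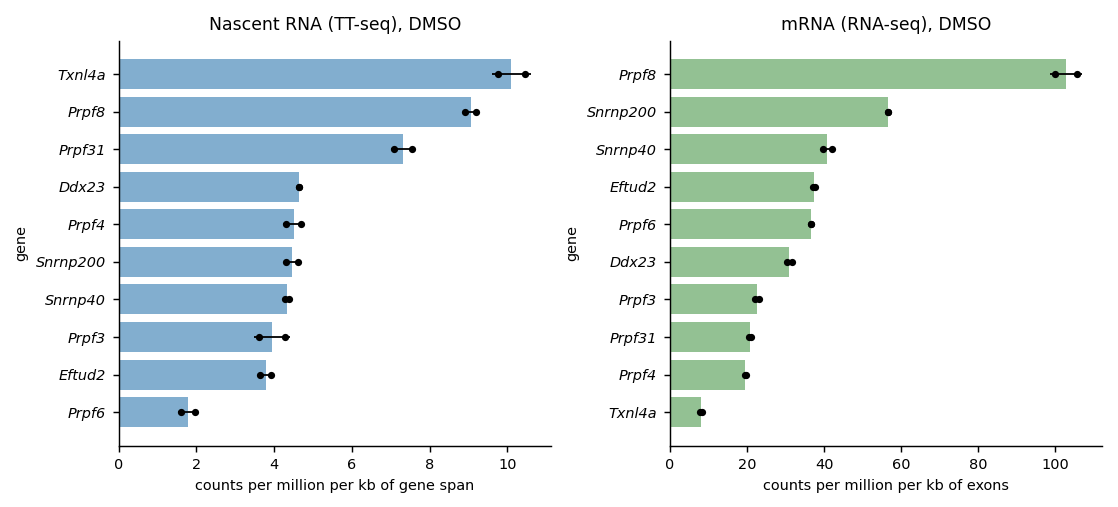
Bars give the mean level of each gene in the 2 DMSO libraries, error bars the SD and points the libraries, as CPM per kb of gene span in TT-seq (left) and CPM per kb of exons in RNA-seq (right). Prpf8 is near the top on both sides, and Txnl4a goes from the highest nascent level (10.1) to the lowest mRNA level (8.02).

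TT-seq asked which genes changed their transcription soon after ZFP143 was lost. Ddx23 had 82.4 and 82.4 CPM of nascent RNA in DMSO. After 2 h of dTAG it had 25.02 and 36.0 CPM, after 6 h 22.8 and 31.4 CPM, and after 24 h 27.3 and 30.1 CPM. All 6 depleted libraries lay below both controls, and the 3 times overlapped each other. The fitted log2 changes were -1.43 ± 0.21, -1.60 ± 0.21 and -1.52 ± 0.21 (SE), which is 37.1%, 32.9% and 34.8% of the control level. The difference between 24 and 2 h was -0.09 on the log2 scale. Without DMSO replicate 2 the 2 h value was -1.41 and without dTAG 2 h replicate 1 it was -1.19, and the 6 h value was -1.39 without dTAG 6 h replicate 1. Genes were called in TT-seq at an adjusted p under 0.05 and a log2 change beyond 0.5, which 2.43%, 2.83% and 4.09% of the 17870 tested genes passed as lower at the 3 times and 0.168%, 0.397% and 2.02% as higher. These shares move with the libraries and the model: the 435 genes lower at 2 h were 102 and 104 without 1 of the 2 h libraries, 181 without DMSO replicate 2 and 662 with the replicate number as a block.

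The other 9 members showed no called change in nascent RNA at any time. Their log2 changes lay between -0.21 and 0.11 after 2 h, between -0.22 and 0.10 after 6 h and between -0.25 and 0.19 after 24 h, with adjusted p-values of at least 0.569, 0.354 and 0.26 by edgeR. Prpf8, for example, had 202 and 208 CPM in DMSO and 192 and 218 CPM after 2 h, with groups that overlapped. The 95% interval of its 2 h change ran from -0.26 to 0.26. Among the bound members, Prpf4 had 78.4 and 85.4 CPM in DMSO and 68.7 and 73.1 CPM after 2 h, both below the controls, with a log2 change of -0.21 ± 0.12. Its 95% interval ran from -0.48 to 0.06. Prpf31 went from 94.2 and 88.7 CPM to 81.0 and 92.0 CPM, an overlap, and Snrnp40 from 131 and 128 CPM to 139 and 141 CPM (log2 change 0.11 ± 0.11, interval -0.14 to 0.36). At 2 h the libraries of 4 of the 10 genes, Ddx23 among them, did not overlap between groups, against 39.1% of all tested genes.

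**Figure D3:**
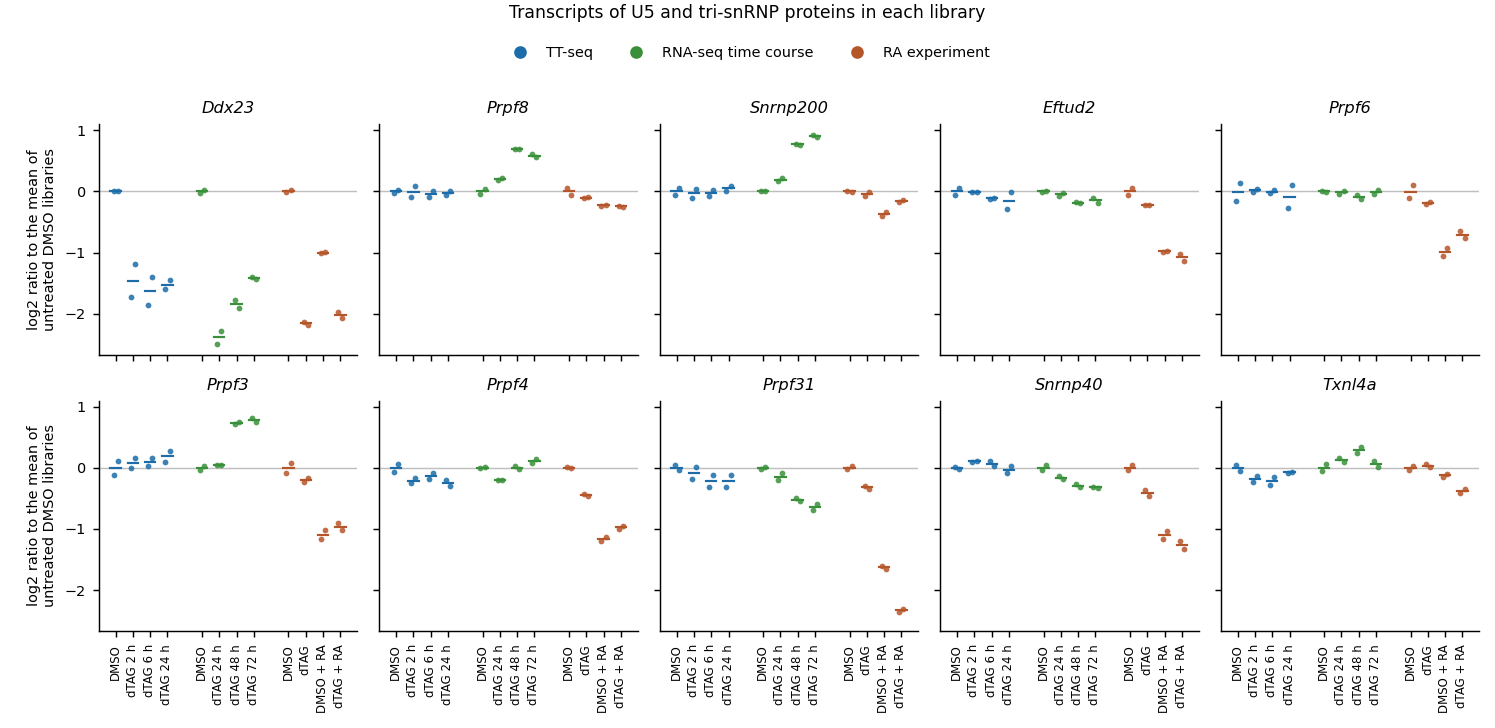
Each panel shows 1 gene, with points for single libraries and bars for the mean of the 2 libraries of a group, as the log2 ratio of CPM to the mean of the untreated DMSO libraries of the same experiment (vertical axis), by group (horizontal axis). Ddx23 lies far below 0 in every depleted group, whereas Prpf8, Snrnp200 and Prpf3 lie above 0 at 48 and 72 h of the RNA-seq time course (Prpf8 did not pass the test at 72 h). After RA in DMSO 7 genes are called lower.

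The RNA-seq time course asked what followed in mRNA over 3 days. Ddx23 mRNA was at 189 and 197 CPM in DMSO and at 34.1 and 39.8 CPM after 24 h. It was at 56.5 and 51.6 CPM after 48 h and at 73.4 and 71.4 CPM after 72 h. The 3 depleted groups did not overlap each other or the control, and the lowest level was the earliest. The log2 changes were -2.39 ± 0.06, -1.83 ± 0.06 and -1.42 ± 0.06 (SE), or 19.1%, 28.1% and 37.5% of control, and the 72 h level was 0.98 ± 0.07 above the 24 h level on the log2 scale. At 24 h the mRNA of Ddx23 stood at a smaller share of its control (19.1%) than did its nascent RNA (34.8%), in separate experiments that were not compared by a test. Calls in RNA-seq required a change beyond 1.5-fold at an adjusted p under 0.01 (edgeR's glmTreat). Of the 13925 tested genes, 3.41%, 7.71% and 12.0% were called lower at the 3 times.

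After 24 h none of the other 9 genes was called, against 2.32% of all tested genes called higher, with log2 changes from -0.20 (Prpf4) to 0.20 (Prpf8). After 48 h, 3 genes were called higher: Snrnp200, Prpf3 and Prpf8, against 10.5% of all tested genes. Snrnp200, the helicase that unwinds U4 from U6, had 443 and 443 CPM in DMSO, 499 and 514 CPM after 24 h, 758 and 753 CPM after 48 h, and 843 and 817 CPM after 72 h. Its groups did not overlap, and it was called at 48 h (log2 change 0.77 ± 0.04, adjusted p = 4.12e-05) and at 72 h (0.91 ± 0.04, adjusted p = 5.23e-09). Prpf3, a protein of the U4/U6 side, had 125 and 131 CPM in DMSO, 132 and 132 CPM after 24 h, 210 and 215 CPM after 48 h, and 225 and 217 CPM after 72 h. The log2 changes of Prpf3 were 0.73 ± 0.05 at 48 h and 0.78 ± 0.05 at 72 h, with adjusted p-values of 0.0035 and 0.000121. Prpf8, the scaffold of U5, had 745 and 788 CPM in DMSO, 869 and 888 CPM after 24 h, 1234 and 1240 CPM after 48 h, and 1170 and 1130 CPM after 72 h. It was called at 48 h (0.69 ± 0.04, adjusted p = 0.00755), close to the threshold, and not at 72 h (0.58 ± 0.04, adjusted p = 0.591). The 72 h change of Prpf8 did pass with library size alone (0.803, adjusted p = 1.23e-05), a scaling that put the median of all genes at 0.234, and in the plain edgeR test with the TT-seq thresholds (adjusted p = 1.43e-13). At 72 h 2 of the 10 genes were called higher against 13.7% of all tested genes.

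The called rises ran from 0.69 to 0.91 on the log2 scale, and some calls rested on single libraries or on the tool. The 48 h call of Prpf8 was lost without DMSO replicate 1 (adjusted p = 0.0916) or 1 of the 48 h libraries (0.0284 and 0.0361), with the size factors of DESeq2 (0.0112), with the replicate block (0.0101) and without the filter on low counts (0.125). The Prpf3 call was lost without DMSO replicate 1 (0.0423) or 48 h replicate 2 (0.0285) and without the filter (0.0683). DESeq2 called only Snrnp200 of the 3 genes at 48 h and did not call Prpf3 at 72 h (adjusted p = 0.0142), and the lowest log2 change among these fits was 0.647, for Prpf8. The Snrnp200 calls at 48 and 72 h held under every alternative run. Snrnp200 lies at chr2:127208386-127240451 and Prpf8 at chr11:75486816-75509449, both on the plus strand, and Prpf3 at chr3:95830124-95855885 on the minus strand (mm10). None of the 3 rising genes had a ZFP143 promoter peak, and none was called in nascent RNA at 24 h, where their log2 changes were -0.03 (Prpf8), 0.05 (Snrnp200) and 0.19 (Prpf3). The summed pluripotency markers moved in the same libraries, from 5754 to 5919 CPM in DMSO to 3837 to 3875 CPM at 48 h. The sum of 5 primitive endoderm markers went from 5.79 to 6.98 CPM in DMSO to 15.1 to 16.7 CPM at 48 h, and that of 5 fibroblast markers from 2.94 to 3.28 CPM to 6.40 to 7.66 CPM. The sum of 5 trophoblast markers went from 36.5 to 36.9 CPM down to 15.6 to 15.8 CPM, and that of 6 RA differentiation markers from 101 to 104.8 CPM down to 54.6 to 55.5 CPM, although of the 2 among these 6 that were tested 1 was called lower (-1.20) and 1 higher (2.44). The part of these markers in the rises of the 3 genes was not tested.

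The remaining genes moved less. Prpf31, which binds the U4 RNA with SNU13, had 112 and 114 CPM in DMSO, 98.2 and 106 CPM after 24 h, 79.9 and 77.5 CPM after 48 h, and 70.3 and 74.5 CPM after 72 h. Its groups did not overlap, but the 72 h change of -0.64 ± 0.06 did not pass the test against 1.5-fold (adjusted p = 0.173); it passed the plain edgeR test with the TT-seq thresholds (adjusted p = 4.26e-11). Snrnp40 had log2 changes of -0.16, -0.30 and -0.32 at the 3 times, with 95% intervals below 0 and no call. Eftud2, Prpf6 and Prpf4 lay within -0.20 and 0.11 at all 3 times. Txnl4a was at 0.29 ± 0.08 after 48 h and at 0.05 ± 0.08 after 72 h, both uncalled. Between 24 and 72 h, beside Ddx23, Prpf3 rose (0.74 ± 0.05, adjusted p = 0.00208), as did Snrnp200 (0.71 ± 0.04, adjusted p = 0.00228), against 7.53% of all tested genes called higher and 6.6% called lower. The Snrnp200 call was lost without 24 h replicate 1 (adjusted p = 0.0315) or 72 h replicate 1 (0.0393), and the Prpf3 call without either 24 h library (0.0122 and 0.0124) or 72 h replicate 1 (0.0294). Both calls were also lost with DESeq2 (adjusted p = 0.0345 for Snrnp200 and 0.112 for Prpf3) and without the filter on low counts (0.0261 and 0.0234).

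**Figure D4:**
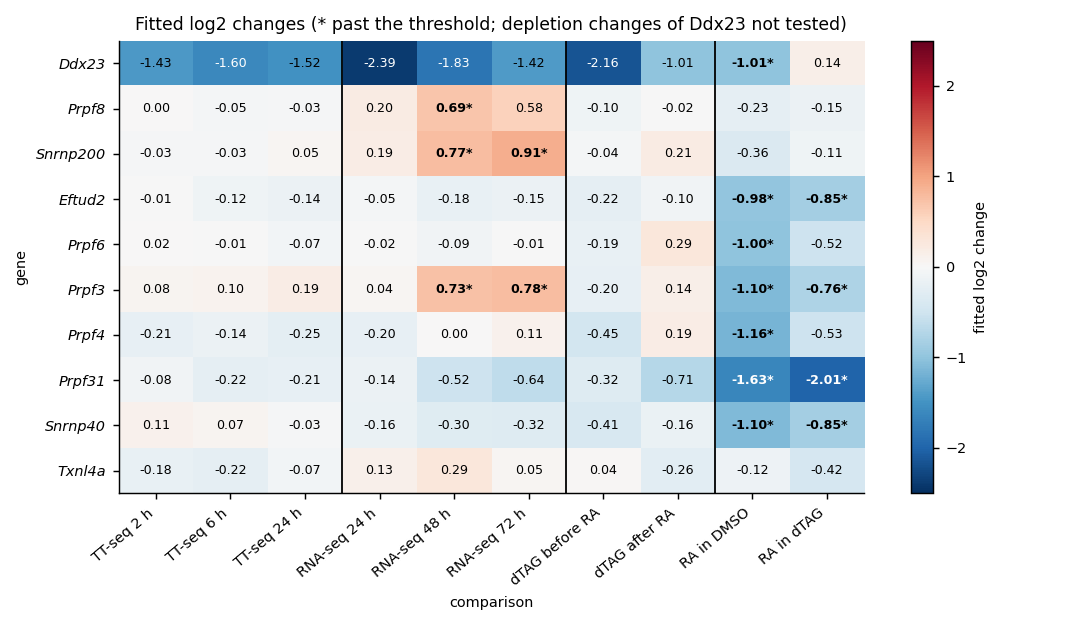
Fitted log2 changes of the 10 genes (rows) in 10 comparisons (columns), with blue for lower and red for higher; an asterisk marks a change past the threshold of its comparison, and the depletion changes of Ddx23, which chose it, are left unmarked. Snrnp200 and Prpf3 are called higher at 48 and 72 h, and the column of RA in DMSO has 7 called genes.

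The RA experiment asked how depletion and differentiation act together. Before RA, after 24 h of dTAG, Ddx23 had 283 and 289 CPM in DMSO and 65.3 and 62.9 CPM in dTAG (log2 change -2.16 ± 0.07, 22.4% of control). None of the other 9 genes was called, against 3.66% of the 15915 tested genes called lower and 2.74% called higher. Prpf4 (-0.45 ± 0.07), Snrnp40 (-0.41 ± 0.07) and Prpf31 (-0.32 ± 0.07), the other bound members, had the next lowest values, and none passed the test. In the time course the 24 h changes of these 3 genes were -0.20, -0.16 and -0.14. After RA, Ddx23 had 142 and 143 CPM in DMSO and 73.1 and 68.3 CPM in dTAG (log2 change -1.01 ± 0.07, 49.6% of control), and no other member was called, against 7.36% of the tested genes called lower and 9.1% called higher. Prpf31 came closest, with 69.6 and 67.5 CPM in DMSO and 41.4 and 42.7 CPM in dTAG (-0.71 ± 0.07, adjusted p = 0.0731).

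Most of these mRNAs were lower after RA and its medium in control cells. In DMSO, 7 of the 10 genes were called lower and none higher, against 18.1% of the tested genes called lower and 25.8% called higher. The median log2 change of the 10 genes was -1.0, and that of all tested genes was 0.03. Prpf31 fell furthest, from 208 and 215 CPM to 69.6 and 67.5 CPM (-1.63 ± 0.07, adjusted p = 1.89e-12). Prpf4 went from 156 and 154 CPM to 68.0 and 70.8 CPM (-1.16 ± 0.07, adjusted p = 2.24e-08). Ddx23 fell from 283 and 289 CPM to 142 and 143 CPM (-1.01 ± 0.07, adjusted p = 1.24e-06), a comparison of control cells in which ZFP143 was not degraded. Snrnp40 (-1.10), Prpf3 (-1.10), Prpf6 (-0.997) and Eftud2 (-0.98) also fell, with no overlap between libraries, which held for 87.1% of all tested genes. Snrnp200 (-0.36 ± 0.07), Prpf8 (-0.23 ± 0.07) and Txnl4a (-0.12 ± 0.09) were not called. Scaling by library size alone raised the median change of all genes to 0.35 and left 4 of the 7 calls, those of Prpf31, Prpf4, Snrnp40 and Prpf3. The sum of the 8 pluripotency markers was 1287 to 1841 CPM after RA in DMSO against 6139 to 6381 CPM before. That of 6 RA differentiation markers was 511 to 605 CPM against 79.4 to 82.5 CPM, although 5 were called higher and 1 lower (-1.4). The part of these markers in the fall of the members was not tested.

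In depleted cells 4 genes were called lower after RA: Prpf31 (-2.01 ± 0.07, adjusted p = 3.6e-14), Eftud2 (-0.85 ± 0.07, adjusted p = 0.0003), Snrnp40 (-0.85 ± 0.08, adjusted p = 0.000516) and Prpf3 (-0.76 ± 0.08, adjusted p = 0.00858), against 18.5% of the tested genes called lower and 25.0% called higher. With library size alone only Prpf31 remained called. The Prpf3 call was also lost with the size factors of DESeq2 (adjusted p = 0.0266), with DESeq2 itself (0.28) and with the replicate block (0.0106), and that of Snrnp40 with DESeq2 (0.0262). Without dTAG + RA replicate 2 the calls of Eftud2, Prpf3 and Snrnp40 were lost (adjusted p = 0.0564, 0.302 and 0.0795), without dTAG replicate 1 those of Prpf3 and Snrnp40 (0.013 and 0.0102), and without dTAG replicate 2 or dTAG + RA replicate 1 that of Prpf3 (0.0454 and 0.0398). Ddx23, already low, had 65.3 and 62.9 CPM before and 73.1 and 68.3 CPM after RA (0.14 ± 0.07).

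The difference between the RA effects in depleted and control cells was tested for the members as an interaction. Depletion lasted 24 h before RA and 48 h after it, so this difference also holds a second day without ZFP143. The experiment had no cells depleted for 48 h without RA, so RA and depletion time cannot be told apart here. Prpf4 passed the threshold with 0.64 ± 0.10 (adjusted p = 2.45e-05): its mRNA fell by 1.16 on the log2 scale in DMSO and by 0.53 in dTAG, where it started lower, at 115 and 113 CPM. This call was lost when the difference was tested against 1.5-fold by glmTreat (adjusted p = 0.441). Of all tested genes, 13.7% were called with a positive difference, and Prpf4 was the 1 member called among the 9 other than Ddx23. For Ddx23, whose depletion effect is part of this value, the difference was 1.15 ± 0.10 and is given with no test. Prpf6 (0.48 ± 0.11, adjusted p = 0.00168), Prpf31 (-0.39 ± 0.10, adjusted p = 0.00348), Prpf3 (0.33 ± 0.11, adjusted p = 0.0183) and Snrnp200 (0.25 ± 0.10, adjusted p = 0.0402) had adjusted p-values under 0.05, as did 43.0% of the tested genes, but a difference below 0.5. Prpf6 passed the threshold without DMSO replicate 1 (0.58), DMSO + RA replicate 2 (0.558) or dTAG + RA replicate 2 (0.585), and with other scalings (0.532 and 0.548). Prpf31 was the one of these whose RA effect was larger in depleted cells.

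Most of these promoters are shared with a gene that starts within 1000 bp on the other strand, and the partners did not follow a common course. The bound promoter between Prpf4 and Cdc26, a subunit gene of the anaphase-promoting complex whose start lies 155 bp away, gave log2 changes of -0.21 for Prpf4 and 0.42 ± 0.13 for Cdc26 in TT-seq at 2 h, neither called (adjusted p = 0.19 for Cdc26). At the bound promoter between Prpf31 and Tfpt (56 bp apart), Tfpt had -0.52 ± 0.20 (adjusted p = 0.378) and Prpf31 -0.08. At that between Snrnp40 and Zcchc17 (189 bp apart), Zcchc17 had -0.06 ± 0.12 and Snrnp40 0.11. Ddx23 had no such partner. After RA in DMSO Tfpt was called lower (-0.89 ± 0.11, adjusted p = 0.0039) together with Prpf31, while Cdc26 (0.01 ± 0.10) and Zcchc17 (-0.18 ± 0.09) were not called. In the interaction Cdc26 had a called negative difference (-0.67 ± 0.14, edgeR adjusted p = 0.000601), against 18.0% of all tested genes, and Prpf4 a positive one (0.64 ± 0.10). Tfpt and Zcchc17 were not called in it. Among the unbound promoters, Zfp512b, whose first 936 bp overlap those of Prpf6 on the other strand, was called higher by 0.75 ± 0.06 at 48 h (adjusted p = 0.00847) and by 1.03 ± 0.06 at 72 h (adjusted p = 3.09e-08), whereas Prpf6 lay at -0.09 and -0.01. 1810024B03Rik next to Snrnp200 was not called in any comparison, Gm26594 next to Prpf3 was tested in TT-seq only and not called, and Ccdc103 next to Eftud2 had too few counts to be tested.

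Other spliceosome genes were taken from lists of names. In the list of further tri-snRNP proteins and U5 assembly factors, of 14 tested genes none was called in TT-seq at 2 or 6 h, and 1, Sart1 (the tri-snRNP protein SNU66, with a ZFP143 promoter peak), was called lower at 24 h (-0.61 ± 0.14, adjusted p = 0.0402). None was called in the RNA-seq time course. After RA in DMSO 8 of the 14 were called lower, against 18.1% of all tested genes, with a median of -0.96 and Aar2 (a U5 assembly factor, -1.31 ± 0.10), Sart1 (-1.19 ± 0.08) and Cd2bp2 (-1.04 ± 0.07) in front. In depleted cells 9 of the 14 were called lower, against 18.5% of all tested genes, led by Snu13 (-1.54 ± 0.09), the protein that holds PRPF31 on U4. Snu13 was also lower in dTAG than in DMSO after RA (-0.95 ± 0.09, adjusted p = 0.000605).

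The Sm and LSm proteins, which form the rings on the snRNAs, had no call among 14 genes in TT-seq at any time, with medians of -0.28, -0.33 and -0.205 against 0.01 over all tested genes at each time. At 72 h Lsm6 (-1.05 ± 0.07) and Snrpd1 (-0.95 ± 0.07) were lower in mRNA. After RA 2 of 14 genes were called lower in DMSO, against 18.1% of all tested genes, and 12 of 14 in dTAG, against 18.5%. In the interaction 12 of 14 had a called negative interaction, Lsm4 the largest (-1.03 ± 0.13, adjusted p = 1.31e-06), against 18.0% of all tested genes. Of the 9 members other than Ddx23 none had a called negative interaction.

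Of 15 U1 and U2 snRNP genes, 6 had a ZFP143 promoter peak, a share of 40% as among the 10 genes here. None was called in TT-seq at 2 h, and Snrpa1 (-0.63 ± 0.15) and Snrnp70 (-0.53 ± 0.11) were lower at 24 h. In mRNA Sf3b5, a small subunit of SF3B, fell from -0.78 ± 0.06 at 24 h to -1.93 ± 0.07 at 72 h, and Snrnp70 was at -0.97 ± 0.05 at 72 h. Of 18 genes of the Prp19 complex and the later helicases, Prpf19 alone was called lower in TT-seq. Its changes were -0.74 ± 0.12, -0.79 ± 0.12 and -0.99 ± 0.12 at 2, 6 and 24 h (adjusted p = 0.0126, 0.00826 and 0.00261). After RA in DMSO 15 of 18 were called lower, against 18.1% of all tested genes. Among 7 proteins of the minor spliceosome, Zmat5 fell most, by -1.93 ± 0.24 at 2 h and -3.23 ± 0.26 at 24 h in TT-seq and -3.73 ± 0.17 at 24 h in mRNA. Zmat5 mRNA was at -3.85 ± 0.17 after 72 h. Ddx23 mRNA went from -2.39 ± 0.06 at 24 h to -1.42 ± 0.06 at 72 h, still below control, and the courses of these genes were not compared by a test. Snrnp48, also of the minor spliceosome, was lower at 2 h (-0.68 ± 0.13, adjusted p = 0.0322). Leaving Ddx23 aside, Zmat5, Prpf19 and Snrnp48 were the genes of these lists called in TT-seq at 2 h, and all 3 had a ZFP143 promoter peak, as did 93.1% of the protein-coding genes called lower at 2 h.

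**Figure D5:**
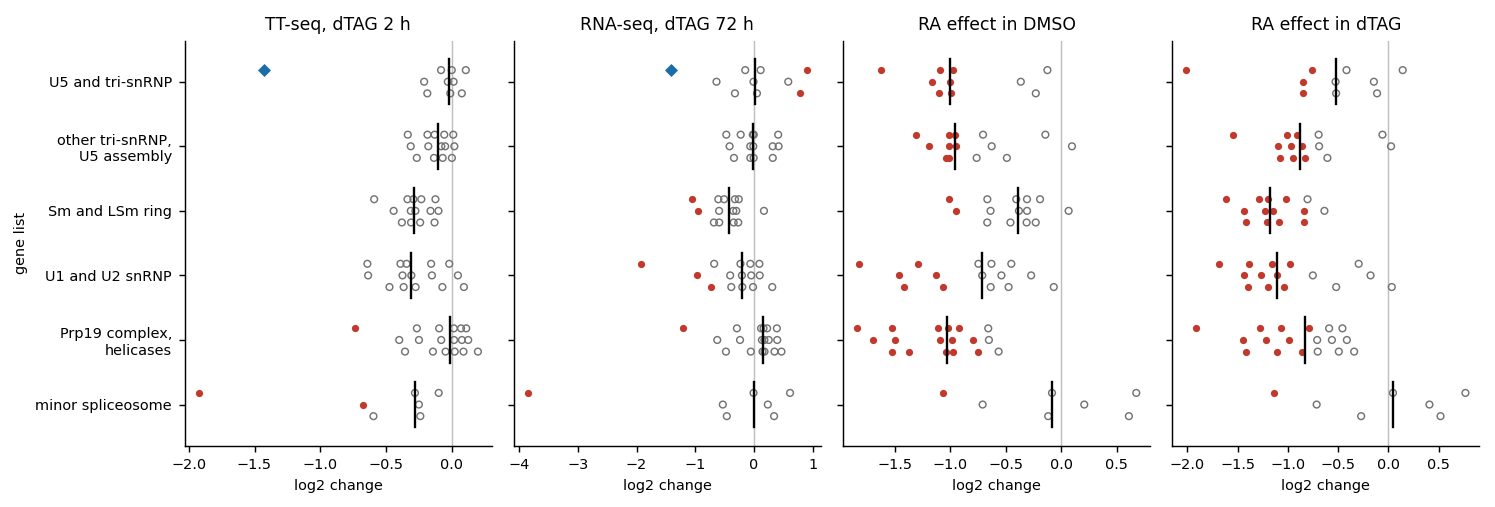
Each point is a gene of 1 of 6 spliceosome lists (rows), placed at its fitted log2 change in 4 comparisons (panels); filled red points passed the threshold of the comparison, open grey points did not, vertical bars are list medians, and the blue diamond is Ddx23 after depletion, shown with no test. In TT-seq at 2 h 3 points are filled and Ddx23 lies at -1.43, while after RA in DMSO 7 of the 10 U5 and tri-snRNP genes are filled on the left.

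The course of Ddx23 over all 24 libraries was compared with that of 10742 other genes that were tested in all 3 tables and had a mean count of at least 100, with each table centred on its untreated DMSO libraries. The 5 most alike genes by Pearson's r of log2 CPM were Irf2bp1 (0.952), Pus3 (0.95), Ifrd2 (0.948), Irf3 (0.942) and Slc27a4 (0.94). Of these, 4 had a ZFP143 promoter peak, Irf2bp1 being the exception, against 93.1% of the protein-coding genes called lower at 2 h. Their TT-seq changes at 2 h were -1.58, -1.83, -2.64, -1.55 and -1.30, and their RA effects in DMSO lay between -0.62 and -1.08. Ddx23 was chosen for its fall, and these genes were picked for likeness to it over the same libraries. Their falls therefore follow from that choice. The libraries also share treatments and controls, so these values describe likeness only. Among the other members no gene came near: Prpf31 had 0.327 (rank 2409), Snrnp40 0.311 and Prpf4 0.301, the other bound members, and Snrnp200 was lowest with -0.19 (rank 7486).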

How the data were processed

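TT-seq and RNA-seq were analysed in 24 libraries of 12 groups, grouped by the labels, with 2 replicates each. The authors aligned reads to mm10 with STAR and deposited raw counts per gene, counted over whole genes with htseq-count after duplicate removal and strand splitting in TT-seq, and over exons by STAR in RNA-seq. For ZFP143 they aligned ChIP-seq reads with BWA and called peaks with MACS2 against input, and deposited each peak's fold enrichment over input, −log10 q value, a display score and the summit. The 4C files were not used, and Hi-C and ATAC-seq were not analysed here.

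Each count table was fitted on its own in R 4.3.3 with edgeR 4.0.16 (TMM scaling, 4 groups, quasi-likelihood). TT-seq and the interaction of RA with depletion were called where the adjusted p was below 0.05 and the log2 change exceeded 0.5 in size, and RNA-seq contrasts by glmTreat against 1.5-fold at an adjusted p under 0.01. Genes needed more than 10 counts in 4 of 8 libraries. Adjusted p-values are Benjamini-Hochberg values over all tested genes. Levels are CPM, counts relative to the TMM-scaled library size, divided by gene span or exon length (GENCODE vM21) where given per kb. The text names all 10 members, their head-to-head neighbours within 1000 bp, up to 3 called genes per list and comparison, and the 5 genes most like Ddx23. The steps were tested on simulated data. The members and the gene lists were chosen with earlier results of these data known. The study's methods call the replicates biological, without saying whether they were separate cultures, so p-values measure only the spread between these libraries. Replicates of all 12 groups differed by more than counting noise (chi-square per degree of freedom 1.6 to 31.2). Alternatives were DESeq2 1.42.0, its size factors, library size alone, no filter, exchanged thresholds, a replicate block and leaving out each library. A longer sequence pattern was added after the data were seen.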

Additional observations from a re-analysis of the deposited data

Results flagged for a closer look

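The effect of RA was compared between depleted and control cells, and Prpf4 was the 1 gene of the 9 other than Ddx23 that passed both the p and the size threshold, a call lost when tested against 1.5-fold (adjusted p = 0.441). Of all tested genes 13.7% passed both with a positive and 18.0% with a negative difference. For Prpf4 the difference was 0.637 on the log2 scale, for Prpf6 0.476, for Prpf3 0.333, for Snrnp200 0.25 and for Prpf31 -0.386, each with an edgeR adjusted p under 0.05, as for 43.0% of all tested genes. The fitted change with RA was closer to 0 in depleted cells for Prpf4, Prpf6, Prpf3 and Snrnp200, and further from 0 for Prpf31. The difference of 1.15 for Ddx23 is given with no test, since its depletion chose it: both DMSO libraries fell with RA, from 283 and 289 CPM to 142 and 143 CPM, while both dTAG libraries were higher after RA (73.1 and 68.3 CPM against 65.3 and 62.9 CPM). The summed level of 6 RA differentiation markers after RA was 511 to 605 CPM in DMSO and 146 to 153 CPM in dTAG. Of 8 pluripotency markers 6 had a called positive difference and 1 a called negative one, with sums after RA of 1287 to 1841 CPM in DMSO and 1258 to 1567 CPM in dTAG. The sums after RA were 12.7 to 16.2 CPM in DMSO and 31.8 to 33.8 CPM in dTAG for fibroblast, 34.05 to 36.2 and 49.8 to 50.2 CPM for primitive endoderm, and 30.07 to 33.5 and 25.05 to 26.97 CPM for trophoblast markers. Of the 5 primitive endoderm markers 1 was called lower and 1 higher in dTAG after RA, with log2 changes from -1.6 to 1.18. The part of these markers in the differences was not tested.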

How the results depend on the processing

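Over all alternatives, the change of a single member kept its direction and its side of the threshold in 1090 fits (for untested values of Ddx23, stayed within 1 SD), reversed in 55, lost its call in 39 and gained one in 13. In 23 further fits an untested value of Ddx23 moved by more than 1 SD between libraries, to 0.534 for RA in dTAG with library size alone. The cause of these changes was not tested.

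Ddx23, chosen for its depletion, counts as a called member for RA in DMSO alone. Of the other 9 members, with the thresholds exchanged, 1 was lower at 48 and at 72 h and in dTAG after RA (Prpf31, against 0), and 0 had a higher interaction, with Prpf4 lost (0.637, adjusted p = 0.441). For RA in dTAG, Prpf6 (-0.521, adjusted p = 3.56e-06) and Prpf4 (-0.526, adjusted p = 5.24e-07) were then also called lower by the plain edgeR test. The interaction had 2 higher, Prpf4 and Prpf6, with the size factors of DESeq2, with library size alone and with DESeq2. Without the filter 1 was higher at 48 h (Snrnp200) and 0 at 72 against 24 h. DESeq2 called 1 higher at 48 h and at 72 h (Snrnp200) and 0 at 72 against 24 h, and 2 lower after RA in dTAG. With library size alone 4 were lower after RA in DMSO and 1 in dTAG. The calls over all genes shifted with that scaling, from 475 lower and 323 higher to 385 and 495 at 24 h, from 1073 and 1456 to 698 and 2047 at 48 h, from 1677 and 1912 to 1109 and 2736 at 72 h, from 919 and 1048 to 720 and 1264 at 72 against 24 h, from 583 and 436 to 481 and 626 in dTAG before RA, from 1171 and 1449 to 762 and 2089 in dTAG after RA, from 2877 and 4113 to 1710 and 5164 for RA in DMSO, and from 2939 and 3980 to 1518 and 5447 for RA in dTAG.

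In TT-seq at 2, 6 and 24 h, 435, 506 and 730 genes were lower and 30, 71 and 361 higher. These became 662, 956 and 1214 and 87, 359 and 1009 with the replicate block, 774, 980 and 1178 and 162, 338 and 1025 without the filter, and 70, 84 and 116 and 5, 4 and 12 with the thresholds exchanged. DESeq2 called 52 and 157 higher at 2 and 6 h. Leaving out 1 library gave as few as 102, 109 and 340 lower and 10, 8 and 98 higher. In RNA-seq the exchanged thresholds gave 1187, 2352 and 3066 lower and 1591, 2944 and 3398 higher at 24, 48 and 72 h and 2332 and 2606 at 72 against 24 h, and DESeq2 called 102, 780 and 1123 higher and 478 lower and 535 higher. In dTAG before and after RA the exchanged thresholds gave 1342 and 2966 lower and 2302 and 3333 higher, and 4508 and 4725 were lower for RA in DMSO and in dTAG. DESeq2 called 143 and 789 higher before and after RA and 765 lower after it. With the thresholds exchanged the interaction calls, 2863 lower and 2186 higher, became 700 and 713. Without 1 library the higher calls fell to as few as 207 at 24 h and 224 in dTAG before RA.

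The reversed changes lay between -0.228 and 0.0974. Those with a 95% interval that left out 0 were Eftud2 at 48 h (-0.27 to -0.09) and 72 h (-0.24 to -0.06), Prpf8 for RA in DMSO (-0.37 to -0.08) and Prpf8 for RA in dTAG, all with library size alone, which put the median of all genes at 0.212, 0.234, 0.352 and 0.394 in these comparisons. With library size alone the reversals were Prpf8 in TT-seq at 2 h (-0.00217) and 24 h (0.0292), Snrnp40 at 24 h (0.0265), Eftud2 in RNA-seq (0.0851, 0.0174 and 0.0704 at 24, 48 and 72 h), Prpf6 (0.116, 0.114 and 0.211), Prpf8 and Snrnp200 before RA (0.0346 and 0.0911), Prpf8, Eftud2 and Snrnp40 in dTAG against DMSO after RA (0.191, 0.111 and 0.0492), Prpf8 and Txnl4a for RA in DMSO (0.0908 and 0.196), and Prpf8 and Snrnp200 for RA in dTAG (0.247 and 0.279). Prpf4 at 48 h was -0.00423 with the size factors of DESeq2, -0.0358 without the filter and -0.00425 with DESeq2. Prpf8 in dTAG against DMSO after RA was 0.0107 with those size factors and 0.0108 with DESeq2.

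Leaving out 1 library leaves a lone sample, assumed to vary like the other groups. Of the 9 members other than Ddx23, those called lower then ranged from 1 to 3 for RA in dTAG, and those called higher from 1 to 3 at 48 h, where Snrnp200 was the one left, from 0 to 2 at 72 against 24 h and from 1 to 2 in the interaction. Log2 changes that crossed 0 were, in TT-seq at 2 h, Prpf8 (-0.0833 to 0.0899), Snrnp200 (-0.0958 to 0.0442), Eftud2 (-0.0669 to 0.0636), Prpf6 (-0.128 to 0.189), Prpf3 (-0.0406 to 0.222) and Prpf31 (-0.165 to 0.00874). At 6 h they were Prpf8 (-0.0986 to 0.00795), Snrnp200 (-0.0915 to 0.0309), Prpf6 (-0.159 to 0.159) and Prpf3 (-0.0306 to 0.231). At 24 h they were Prpf8 (-0.0565 to 0.012), Snrnp200 (-0.00722 to 0.116), Prpf6 (-0.27 to 0.104) and Snrnp40 (-0.077 to 0.0264), and between 24 and 2 h Ddx23 (-0.327 to 0.193). In mRNA they were Prpf6 at 24 h (-0.0345 to 0.00303) and 72 h (-0.0519 to 0.0255), Prpf4 at 48 h (-0.016 to 0.0286), Txnl4a at 72 h (-0.00394 to 0.11) and Prpf8 in dTAG against DMSO after RA (-0.0121 to 0.0221).

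Groups share replicate numbers, but nothing in the labels ties equal numbers together and there are only 2. Deviations of equally numbered libraries correlated at 0.214 to 0.667 in TT-seq, -0.0558 to 0.0575 in the RNA-seq time course and -0.175 to 0.192 in the RA experiment. With the replicate number as a block, Prpf8 in TT-seq at 2 h was -0.00088, Prpf6 at 6 h was 0.00208, and the calls of Prpf8 at 48 h (0.69, adjusted p = 0.0101) and of Prpf3 for RA in dTAG (-0.761, adjusted p = 0.0106) were lost, with no other call changed among the members.

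Levels per kb in the DMSO libraries with library size alone were 4.62 for Ddx23 in TT-seq and, in RNA-seq, 93.4 for Prpf8, 51.5 for Snrnp200, 37.1 for Snrnp40, 34 for Eftud2, 33.3 for Prpf6, 28.1 for Ddx23, 20.6 for Prpf3, 18.9 for Prpf31, 17.8 for Prpf4 and 7.29 for Txnl4a. The 4 promoter peaks remained with a window of 500 bp on either side and with an enrichment of at least 10.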
